A study of Mus musculus with 2 samples.

Results

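The genes described here are the sarcomeric myosin heavy chain genes Myh1, Myh2, Myh3, Myh4, Myh7, Myh7b and Myh8. They were chosen by gene name, and every transcript model that the deposited tables assign to them was kept: 470 of 72146 models in replicate 1 and 825 of 90261 in replicate 2. The 7 genes stand among 14658 annotated gene symbols with reads. The samples were gastrocnemius tissue, from the large calf muscle, of 2-month-old male B6CASTF1/J mice. This strain is an F1 cross between the laboratory strain C57BL/6J and the wild-derived strain CAST/EiJ. The labels do not say which part of the muscle was taken. Each of the 2 libraries was made from 2 µg of RNA and sequenced as long reads. They form 1 group without treatment, so there is no comparison of conditions and no p-value. The labels number the males differently but give both the same donor identifier, so it cannot be told apart whether the spread between the libraries is biological or technical.

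Myosin heavy chains form the thick filament of the sarcomere and carry the ATPase motor that pulls on actin. Each muscle fibre is typed by the heavy chain it contains: Myh4 marks the fastest type IIB fibres, Myh1 type IIX, Myh2 type IIA and Myh7 slow type I fibres, which are also rich in mitochondria. Myh3 is the embryonic and Myh8 the perinatal gene, both switched down as muscle matures and re-expressed in regenerating fibres, and Myh7b is an ancient slow-type member that hosts a microRNA. Myh3, Myh2, Myh1, Myh4 and Myh8 lie in that order in a cluster on the same strand of chromosome 11, whereas Myh7 is on chromosome 14 and Myh7b on chromosome 2. In mm10 the gene spans are chr11:67238029-67260446 for Myh4, chr11:67200052-67224575 for Myh1, chr11:67171027-67197517 for Myh2, chr11:67078300-67102291 for Myh3 and chr11:67277124-67308634 for Myh8, all on the plus strand. Myh7 lies at chr14:54970684-54994626 on the minus strand and Myh7b at chr2:155611212-155634307 on the plus strand.

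The 2 libraries held 1107128 and 1402875 reads of annotated genes, and a count of 0 allowed a level of up to 2.71 and 2.14 CPM (3 counts in each library), where CPM is a gene's count per 1000000 annotated-gene reads of its library. Each read was counted once whatever its length, and the longest annotated transcripts of the 7 genes are alike (6016 to 6230 nt), so CPM were compared between members without division by length. Whether amplification or transcript length affected how often a molecule was read was not tested. Of 6 cardiac markers, 5 (Nppa, Tnni3, Tnnt2, Myl7 and Mybpc3) had 0 reads in both libraries and Myh6, the cardiac alpha heavy chain, had 1 and 5 reads. The satellite cell, tendon, endothelial and leukocyte marker lists were low, at most 176 CPM in sum for any of them. In the satellite cell list Cdh15 had 36 and 54 reads, Pax7 0 in both libraries, Myf5 0 and 2, and Vcam1 1 and 3. In the leukocyte list Lyz2 had 26 and 35 reads, Cd68 0 in both libraries, Ptprc 0 and 2, and Adgre1 0 and 1.

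Myh4 was the leading heavy chain gene of this muscle in both libraries. It had 16494 reads (14898 CPM, exact Poisson 95% interval 14672 to 15127) in replicate 1 and 25951 reads (18498 CPM, 18274 to 18725) in replicate 2, a mean of 16698 ± 2546 CPM (SD, n = 2). By CPM it ranked as gene 7 of all annotated genes in the former library and gene 5 in the latter. Myh1 had 1370 reads (1237 CPM) and 5362 reads (3822 CPM), Myh7 had 557 reads (503 CPM) and 3982 reads (2839 CPM), and Myh2 had 501 reads (453 CPM) and 2001 reads (1426 CPM). All 4 genes were higher in replicate 2, but by unequal factors. Myh4 lay above the other genes in each library, 12.0-fold above Myh1 in replicate 1 and 4.84-fold in replicate 2. The means of Myh1 (2530 ± 1828 CPM), Myh7 (1671 ± 1651 CPM) and Myh2 (939 ± 689 CPM) differed by less than the SD of Myh1. That SD is the spread between the libraries, and all these genes were measured in the same libraries. Within each library Myh1 lay above both. In replicates 1 and 2 it was 2.46-fold and 1.35-fold above Myh7, and 2.73-fold and 2.68-fold above Myh2. Myh7 and Myh2 were 1.11-fold apart in replicate 1, where their counting intervals of 462 to 547 CPM and 414 to 494 CPM overlapped, and 1.99-fold apart in replicate 2.

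The make-up of the family differed between the libraries. Of 18923 reads of the 7 genes in replicate 1, Myh4 held 87.2%, Myh1 7.24%, Myh7 2.94% and Myh2 2.65%. Of 37322 such reads in replicate 2 the shares were 69.5%, 14.4%, 10.7% and 5.36%. The family as a whole held 1.71% of annotated-gene reads in replicate 1 and 2.66% in replicate 2. In such bulk tissue, fewer fibres of a type and less RNA per fibre cannot be told apart.

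**Figure D1:**
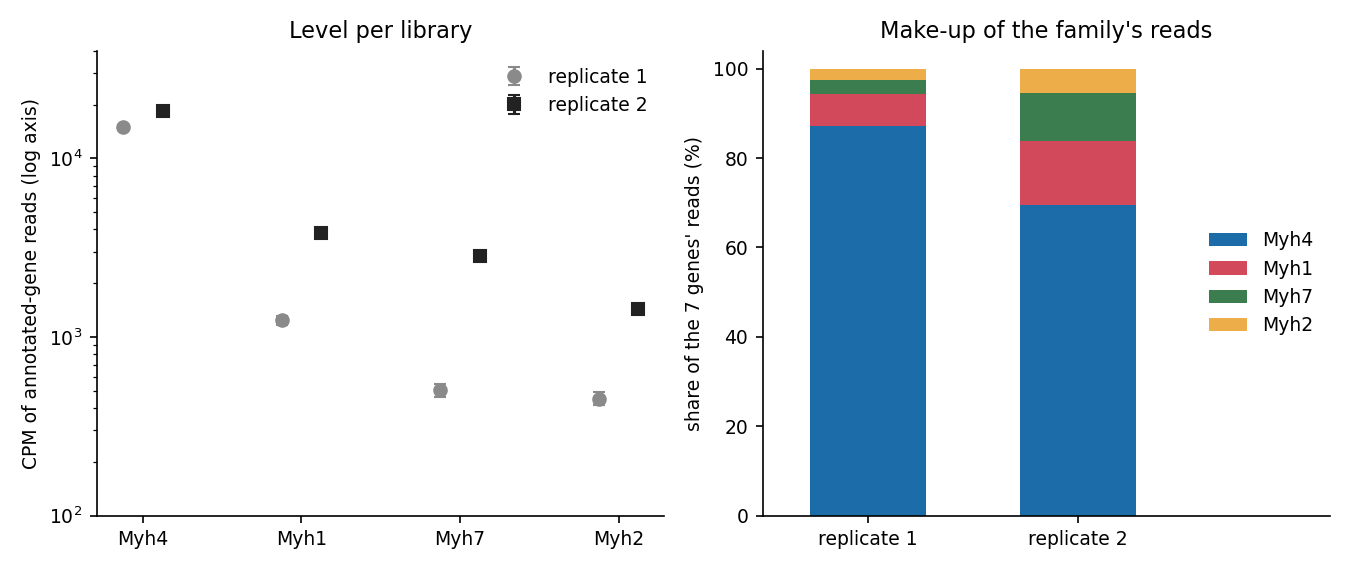
CPM of Myh4, Myh1, Myh7 and Myh2 in each library on a log axis (left; bars are exact Poisson 95% intervals, mostly smaller than the symbols) and the share of the 7 genes' reads held by each of them (right). Myh4 leads in both libraries, and the other 3 genes take a larger share in replicate 2.

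The type IIX, IIA and slow genes were more than 2-fold higher in replicate 2, and Myh4 was not. The ratio of CPM was 5.64 for Myh7 (95% counting interval 5.16 to 6.18), 3.15 for Myh2 (2.86 to 3.48), 3.09 for Myh1 (2.91 to 3.28) and 1.24 for Myh4 (1.22 to 1.27). Among the 4295 genes with at least 50 reads summed over the libraries, 3.86% were over 2-fold higher in replicate 2 and 0.536% were over 2-fold lower. Among the 413 of these whose longest annotated transcript measures 5 to 7 kb, as the members do, 7.26% were over 2-fold higher. Thus 3 of the 4 members with enough reads were past 2-fold, against a background of a few per cent. Both backgrounds include the members themselves. On the log2 scale the members stood at 2.50 (Myh7), 1.66 (Myh2), 1.63 (Myh1) and 0.31 (Myh4), where the median was 0.11 for all genes and 0.26 for genes of 5 to 7 kb. Of all 4295 genes, 8 had a higher ratio than Myh7, 26 than Myh2, 27 than Myh1 and 1319 than Myh4. None of the 413 genes of like length had a higher ratio than Myh7.

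**Figure D2:**
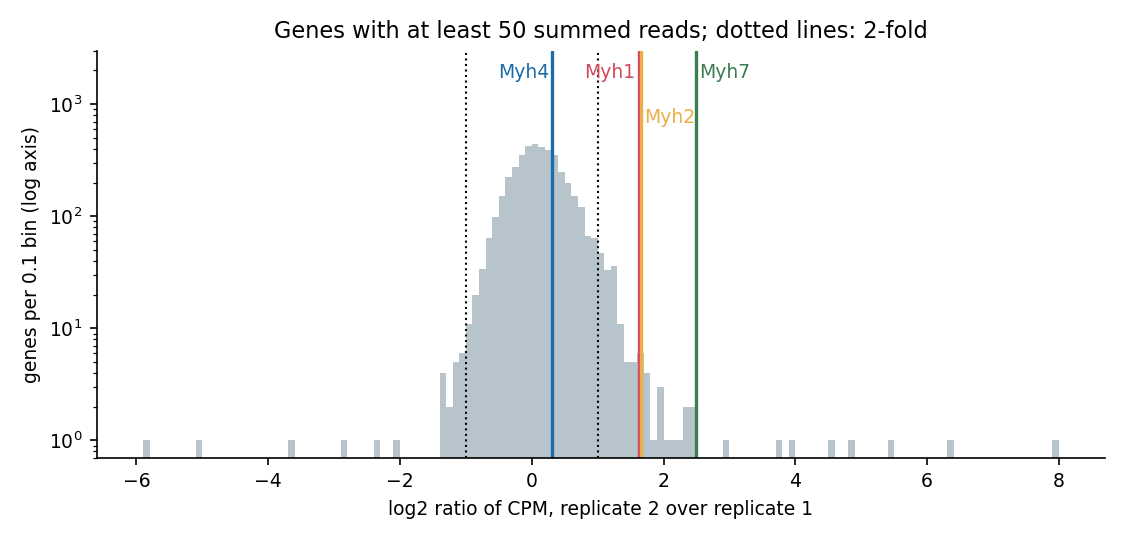
Number of genes by log2 ratio of CPM in replicate 2 over replicate 1, in bins of 0.1 with a log count axis, for the 4295 genes with at least 50 summed reads. Dotted lines mark 2-fold; Myh4 at 0.31 lies within the bulk, while Myh1 at 1.63, Myh2 at 1.66 and Myh7 at 2.50 lie in the right tail.

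Genes with the most similar ratio were sought among 554 genes with at least 500 summed reads, 1 ratio being all that a pair of libraries gives. Nearest to Myh1 were Atp2a2, the calcium pump of slow and cardiac muscle (log2 ratio 1.59), Ldhb, the lactate dehydrogenase subunit of oxidative tissue (1.69), and Tnnt1, slow troponin T (1.52). Nearest to Myh2 were Ldhb, Atp2a2 and Idh2, a mitochondrial isocitrate dehydrogenase (1.77). Idh2 was also the nearest gene to Myh7, though it lay well below it. Nearest to Myh4 were Myom1, an M-band protein of the thick filament (0.32), Ube2r2 and the glycogen synthase gene Gys1 (0.31 for Gys1).

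The most-read Myh4 transcript of this muscle was absent from the annotation the authors used. In both libraries the leading Myh4 model was an unannotated chain of 40 exons and 6340 nt, with 5392 reads (32.7% of the gene's reads) in replicate 1 and 8182 (31.5%) in replicate 2. It begins with an exon at chr11:67237508-67237833 (mm10, plus strand) that no GENCODE M21 transcript of Myh4 holds, goes on to a 49-nt exon at chr11:67238031-67238079, and reaches the exon with the start codon at chr11:67240585-67240827. The junction out of the upstream exon was carried by 5562 reads in 69 models of replicate 1 and by 8419 reads in 87 models of replicate 2. Of the reads that joined any upstream exon to the 49-nt exon, it made up 98.8% and 98.6%. A donor further downstream, at position 67237928, took 44 and 82 reads, and an exon further upstream that ends at position 67236303 took 8 and 15.

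The annotated Myh4 transcripts are shorter at the 5′ end. One has 39 exons and begins at position 67238029, at the 49-nt exon, with 547 and 894 reads. The other has 38 exons and begins within the exon of the start codon, at position 67240597, with 1848 and 4270 reads. The Myh4 reads assigned to annotated transcripts, 2395 in replicate 1 and 5164 in replicate 2, all lacked the upstream exon. For Myh1, Myh2 and Myh7 the most-read model was an annotated full chain: 40 exons for Myh1 (742 and 2987 reads), 40 exons for Myh2 (157 and 683) and 41 exons for Myh7 (385 and 3229).

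RefSeq places the start of Myh4 inside the unannotated exon, at position 67237812, which leaves 22 bases to the splice donor. The deposited model starts 304 bases upstream of that point. The table gives 1 coordinate per model, and other deposited Myh4 models begin at the edge of a neighbouring gene or at a splice site, so the coordinate is not a measured start for each read. The RefSeq start of Myh1 leaves 23 bases to its donor at position 67200124, and the annotated 40-exon chain starts 50 bases upstream of it. For Myh2 and Myh7 the RefSeq start coincides with that of the longest annotated chain.

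The 100 bases upstream of the RefSeq start are shown for the 4 expressed genes, because for Myh4 they lie within the unannotated exon, of which 304 bases precede that start, with the letters TATAAA in capitals (RefSeq, GRCm38.p6, 5′ to 3′ on the gene's strand; chr11:67237712-67237811, chr11:67200002-67200101 and chr11:67170927-67171026 on the plus strand and chr14:54994627-54994726 on the minus strand).
Myh4: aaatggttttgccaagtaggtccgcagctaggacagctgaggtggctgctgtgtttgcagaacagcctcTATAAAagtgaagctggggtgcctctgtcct
Myh1: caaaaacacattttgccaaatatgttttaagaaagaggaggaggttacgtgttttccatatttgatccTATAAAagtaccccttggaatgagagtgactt
Myh2: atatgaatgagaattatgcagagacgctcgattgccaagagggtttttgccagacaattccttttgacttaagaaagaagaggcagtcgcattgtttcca
Myh7: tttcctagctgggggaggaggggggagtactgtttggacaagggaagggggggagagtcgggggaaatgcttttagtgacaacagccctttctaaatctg
TATAAA, searched on both strands, lay at bases -31 to -26 from the start of Myh4 and -32 to -27 from that of Myh1, on the gene's strand, and was not found in the windows of Myh2 and Myh7. Of 32851 RefSeq promoters, 5.56% hold it in the same window. The E-box letters CANNTG, bound by myogenic factors such as MyoD, were found in the window of Myh4 and in 34.4% of all promoters, and not in the windows of the other 3 genes.

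The deposited tables class each model by its match to the annotation, and Myh4 differed in these classes from the other members. Annotated transcripts held 14.5% (Wilson 95% interval 13.99 to 15.1) and 19.9% (19.4 to 20.4) of Myh4 reads. They held 66.6% and 69.4% of Myh1 reads, 41.5% and 47.5% of Myh2 reads, and 69.1% and 81.1% of Myh7 reads. Chains with an unannotated splice site held 33.8% and 32.8% of Myh4 reads, but at most 2.69% in either library for Myh1, Myh2 and Myh7. Of the 5567 and 8517 such Myh4 reads, 5456 and 8325 carried the upstream junction. Without that junction the class held 0.673% and 0.740% of Myh4 reads. Among the 242 other genes of 5 to 7 kb with at least 100 summed reads, the median share of this class was 3.50% in replicate 1 and 3.99% in replicate 2, and 97.9% of those genes had a smaller share than Myh4 in each library.

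**Figure D3:**
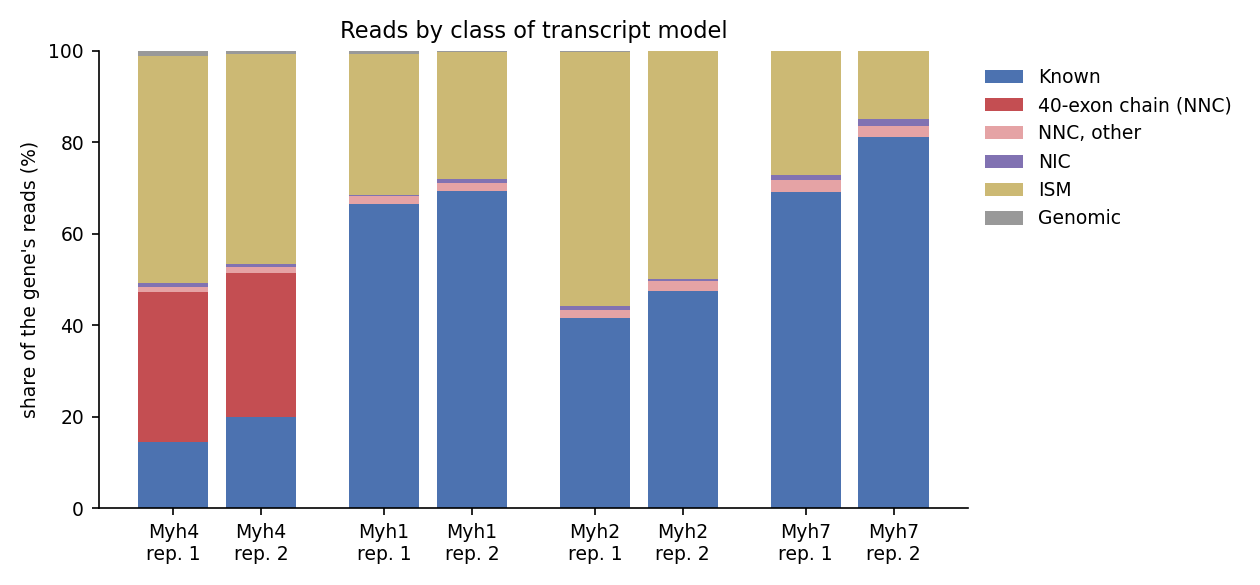
Share of each gene's reads by class of transcript model, for Myh4, Myh1, Myh2 and Myh7 in replicates 1 and 2. Known are annotated transcripts, ISM incomplete splice matches, NIC new joins of annotated splice sites, NNC chains with an unannotated splice site and Genomic unspliced overlaps; the 40-exon chain makes up nearly all NNC reads of Myh4.

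Counting annotated transcripts alone moved the balance of the fibre type genes. The mean level of Myh4 was 2922 CPM on annotated transcripts alone, in place of 16698. Its share of the family's reads was then 61.4% in replicate 1 and 39.5% in replicate 2. Myh7 held 9.87% and 24.7% of the family, and Myh1 23.4% and 28.5%. Myh4 was still the most-read member in each library under that count.

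Many reads of all 4 genes stopped short of the 5′ end. Incomplete chains that lack 5′ exons but end at the last junction (suffix matches) made up 49.4% and 45.7% of Myh4 reads, 53.9% and 48.0% of Myh2 reads, 30.7% and 27.7% of Myh1 reads, and 26.6% and 14.7% of Myh7 reads. The 242 genes of like length were chosen by their longest annotated transcript, not by exon number or by the transcript expressed. Their median was 7.28% and 6.05%. At least 95.0% of them lay below Myh4 and Myh2 in each library, 87.6% and 89.7% below Myh1, and 85.5% and 76.9% below Myh7. At the other end only the deposited ends of models are known, not those of single reads. Models with 99.8% and 99.9% of Myh4 reads ended within 50 nt of the end of the longest chain. So did those with at least 97.9% of Myh2 and 99.5% of Myh7 reads. This held for 1252 of 1370 and 4826 of 5362 Myh1 reads. Another annotated 40-exon Myh1 transcript, of 5938 nt in place of 6081 nt, held 117 and 519 reads.

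By the rule set for this measure, a read reached the 5′ end if its model began within 50 nt of, or upstream of, an annotated start, or held the first junction of an annotated transcript. This held for 50.8% and 55.3% of Myh4 reads, 69.1% and 72.8% of Myh1 reads, 43.7% and 50.2% of Myh2 reads, and 97.1% and 97.6% of Myh7 reads. The value for Myh7 counts starts of short annotated transcripts inside the gene, and that for Myh4 counts reads that begin at the start codon exon. With the first junction of the longest chain as the criterion, a choice made after seeing the data, the shares were 33.7% and 32.4% for Myh4, 64.2% and 67.1% for Myh1, 32.3% and 35.6% for Myh2, and 71.8% and 84.0% for Myh7.

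The exon with the start codon was reached by 49.3% and 53.7% of Myh4 reads, 46.7% and 57.1% of Myh2 reads, 73.2% and 81.8% of Myh1 reads, and 73.6% and 86.4% of Myh7 reads. Each gene had the larger share in replicate 2, and the intervals of the libraries did not overlap for any of the 4. In both libraries Myh4 and Myh2 lay below Myh1 and Myh7. Many reads began in the start codon exon itself, 11.6% and 17.1% of Myh4 reads, 4.23% and 9.23% of Myh1 reads, 3.19% and 7.10% of Myh2 reads, but 0.718% and 0.678% of Myh7 reads.

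**Figure D4:**
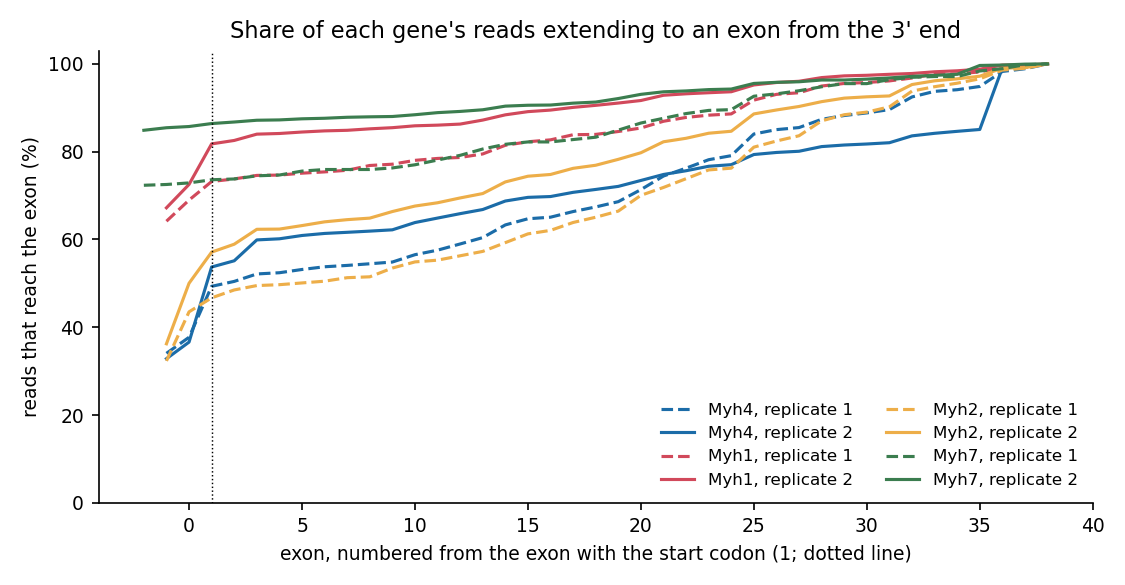
Percentage of each gene's reads that extend from the 3′ end to a given exon, with exons numbered from the one that holds the start codon (1; upstream exons are 0 and below). Solid lines are replicate 2 and dashed lines replicate 1; the Myh4 line of replicate 2 drops where 14.03% of reads start, in exon 36, and the lines of the 3 fast genes drop again upstream of exon 1.

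Reads that lacked 5′ exons began in nearly every exon, with unequal shares. Their models started in 36 of 38 possible exons for Myh4 and Myh1 and 37 of 38 for Myh2 in each library. For Myh7 it was 32 and 38 of 39. Coding exons are numbered here from the exon with the start codon. Of 38 such exons, 35 of Myh1, 35 of Myh2, 34 of Myh3, 34 of Myh8, 31 of Myh7 and 0 of Myh7b have the length of the Myh4 exon of the same number. Coding exon 25, of 390 nt, the longest internal exon, held the most starts of any exon downstream of the start codon exon in replicate 1 in all 4 genes. It took 4.94% and 2.31% of Myh4 reads, 3.14% and 1.55% of Myh1 reads, 4.79% and 3.95% of Myh2 reads, and 3.05% and 1.28% of Myh7 reads. Per 100 nt of exon, however, it held only 1.27% and 0.593% of Myh4 reads, where coding exon 36 held 3.26% and 13.4% and the 71-nt coding exon 15 held 1.97% and 1.17%. On the same scale coding exon 36 held 0.973% and 0.888% of Myh1 reads, and coding exon 15 held 1.04% and 0.945%. For Myh2 the values were 1.90% and 1.76% for coding exon 36 and 2.50% and 1.62% for coding exon 15. Coding exon 14, of 310 nt in Myh4, took 2.89% and 1.94% of Myh4 reads and 1.97% and 1.19% of Myh1 reads. As a description over 37 exons, the shares of reads starting in each exon had a Spearman's rho between the libraries of 0.90 for Myh4, 0.76 for Myh1, 0.76 for Myh2 and 0.68 for Myh7. Pearson's r for Myh4 was 0.52. Between different genes rho ran from 0.31 (Myh1 with Myh7 in replicate 1) to 0.85 (Myh4 with Myh2 in replicate 2), and between Myh2 and Myh7 from 0.39 to 0.50. Exon length and library are common to the points, so these coefficients carry no test. Of the suffix reads of Myh4, 85.8% and 91.0% belonged to models whose deposited start is exactly the start of an exon. The position within the exon at which a read began is therefore not given. Why these reads lack 5′ exons was not tested.

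A short 3′ Myh4 chain took a far larger share of the gene's reads in replicate 2. The 3-exon model of 460 nt, which begins at coding exon 36 (chr11:67259083-67259187), had 565 reads in replicate 1 (3.43% of the gene) and 3630 in replicate 2 (13.99%). The equivalent chain had 14 and 50 reads for Myh1 (1.02% and 0.932%) and 10 and 36 for Myh2 (2.00% and 1.80%). Exon numbers of Myh7 differ here, as its coding exon 35 measures 276 nt. The 4-exon Myh7 chain that begins within that exon had 7 and 80 reads (1.26% and 2.01%). The 36-exon Myh4 chain that begins at coding exon 3 also differed, with 265 reads (1.61%) and 1173 reads (4.52%). For the same 36-exon chain, Myh1 had 0.730% and 1.42% and Myh2 0.998% and 3.35%. By contrast the 14-exon Myh4 chain from coding exon 25 had 810 reads in replicate 1 and 592 in replicate 2. Chains from coding exons 3 and 36 thus took a larger share of Myh4 reads in replicate 2, and the chain from coding exon 25 a smaller one (4.91% and 2.28%).

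**Figure D5:**
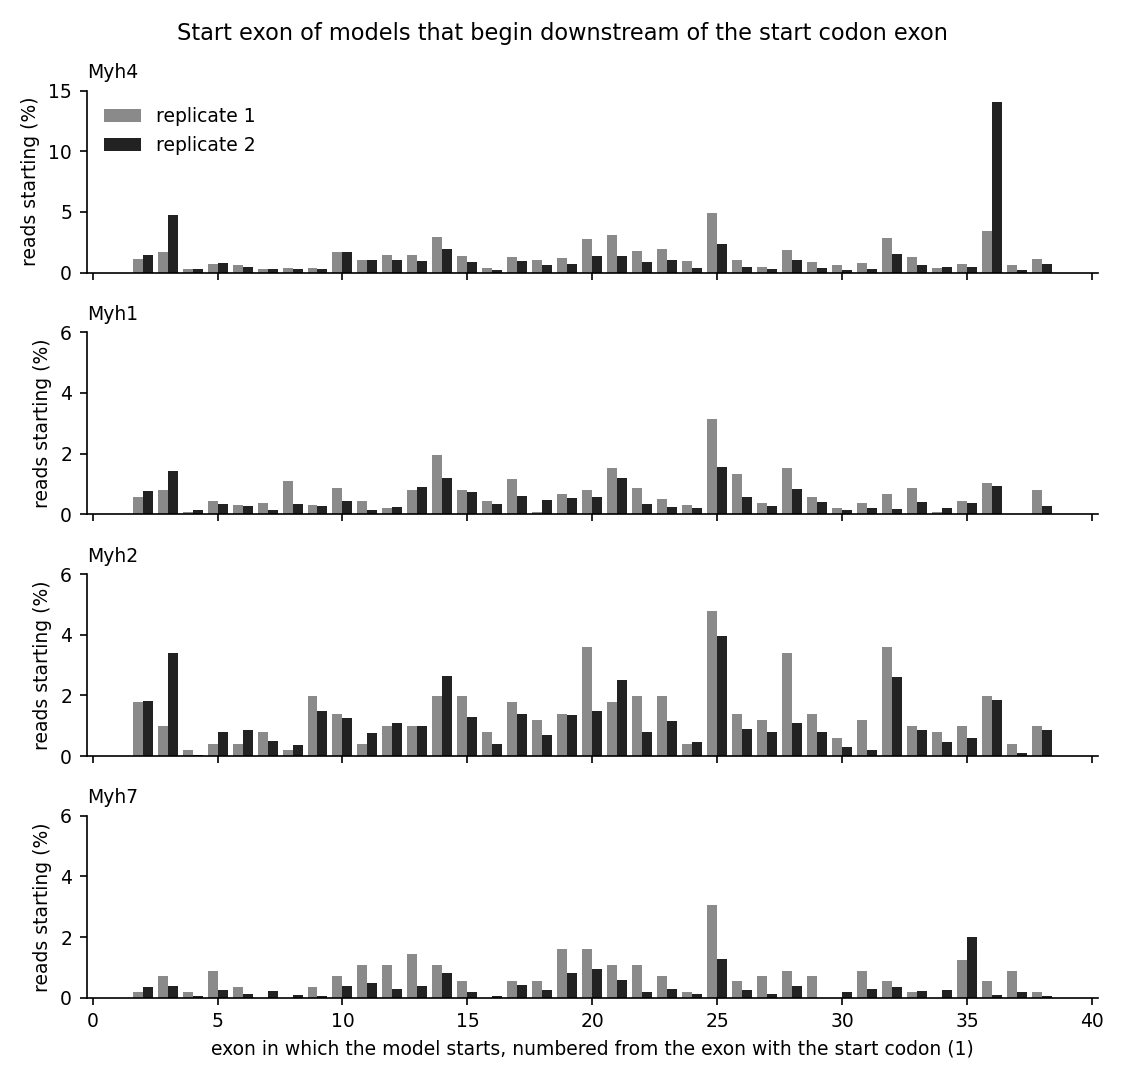
Percentage of each gene's reads whose model starts in a given exon downstream of the start codon exon, in replicate 1 (grey) and replicate 2 (black); the Myh4 axis runs to 15% and the others to 6%. Exon 25, the longest, has the tallest grey bar in all 4 genes, and exon 36 of Myh4 reaches 14.03% in replicate 2.

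Coding exon 36 is shown for the 3 fast genes because 14.03% of Myh4 reads but at most 1.85% of Myh1 and Myh2 reads started there in replicate 2, with bases that differ from Myh4 in capitals (GENCODE M21 transcripts, mm10, plus strand; Myh1 at chr11:67222147-67222251 and Myh2 at chr11:67194809-67194913).
Myh4: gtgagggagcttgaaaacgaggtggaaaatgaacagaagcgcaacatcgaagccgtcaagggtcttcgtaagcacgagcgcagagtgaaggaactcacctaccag
Myh1: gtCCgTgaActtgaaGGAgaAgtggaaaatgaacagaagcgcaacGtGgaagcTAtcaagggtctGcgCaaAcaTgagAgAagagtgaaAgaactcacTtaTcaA
Myh2: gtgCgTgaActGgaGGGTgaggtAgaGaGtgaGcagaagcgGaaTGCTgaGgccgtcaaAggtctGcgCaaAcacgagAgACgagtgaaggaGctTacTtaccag
The exon differs from Myh4 at 22 bases in Myh1 and at 28 in Myh2, an identity of 79.0% and 73.3%. Over all inner coding exons of equal length, Myh4 was 89.6% identical to Myh1 and 88.4% to Myh2, so this exon was below the average, and it was the least identical of the 35 exons compared between Myh4 and Myh2.

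Downstream of their start, nearly all reads followed the exons of the longest chain of their gene. Models that hold every junction from their start exon to the last exon carried 95.7% and 95.9% of Myh4 reads, 94.8% and 94.4% of Myh2 reads, 95.5% and 95.6% of Myh7 reads, and 87.4% and 85.9% of Myh1 reads. The Myh1 value leaves out an annotated variant. Its start codon exon has a splice acceptor 4 bases downstream of the main one, also annotated, and this acceptor was used in 13.6% (Wilson interval 11.5 to 15.9) of 943 reads and 14.97% (13.9 to 16.1) of 3882 reads that cross the junction. Skipped internal exons were rare: the 38-nt second exon of Myh7 was skipped by 1 and 10 reads, of 403 and 3380 reads that began upstream, and no exon of Myh4 was skipped by more than 4 reads in either library. Of 559 distinct Myh4 chains 130 occurred in both libraries, and they held 99.0% and 98.6% of its reads.

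A small set of chains combined exons of different heavy chain genes of the chromosome 11 cluster. There were 43 such chains, with 72 reads in replicate 1 and 92 in replicate 2, and 8 of them occurred in both libraries. In 26 of them, with 65 and 77 reads, a single exon of the other gene stood at an end of the chain. It was the 5′ end in all but the chain of Myh4 with Myh8, which had 1 read in replicate 1. By pair, 42 and 46 reads joined Myh1 to Myh4, 12 and 18 joined Myh2 to Myh4, and 15 and 11 joined Myh3 to Myh4. In 26 chains the switch ran from a coding exon of one gene to the next coding exon by number of another. The 2 most-read examples began in coding exon 21 of Myh1 (21 and 14 reads) and coding exon 3 of Myh1 (9 and 18 reads). The chain from coding exon 21 of Myh3 had 15 reads in replicate 1, although Myh3 itself had 0 reads there, and 11 reads in replicate 2.

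The exons at the most-read switches are shown so that the copies can be compared base by base. Coding exon 21 (243 nt) is shown for Myh4 (chr11:67251706-67251948), Myh1 (chr11:67213209-67213451) and Myh3 (chr11:67092331-67092573), all plus strand of mm10, with bases that differ from Myh4 in capitals.
Myh4: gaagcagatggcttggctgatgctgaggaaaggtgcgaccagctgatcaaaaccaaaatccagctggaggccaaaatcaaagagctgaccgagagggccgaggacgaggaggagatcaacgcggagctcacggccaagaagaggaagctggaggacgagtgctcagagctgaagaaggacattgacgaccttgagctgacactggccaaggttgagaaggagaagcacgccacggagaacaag
Myh1: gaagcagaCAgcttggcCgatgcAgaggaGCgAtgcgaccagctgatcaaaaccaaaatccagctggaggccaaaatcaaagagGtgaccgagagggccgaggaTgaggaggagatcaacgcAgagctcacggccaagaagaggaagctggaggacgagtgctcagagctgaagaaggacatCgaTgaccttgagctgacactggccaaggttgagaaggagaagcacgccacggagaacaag
Myh3: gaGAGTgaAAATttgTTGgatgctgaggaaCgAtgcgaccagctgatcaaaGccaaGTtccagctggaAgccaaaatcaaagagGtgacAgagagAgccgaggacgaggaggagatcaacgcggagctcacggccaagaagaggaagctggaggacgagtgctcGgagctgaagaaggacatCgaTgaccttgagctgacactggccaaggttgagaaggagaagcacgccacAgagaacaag
Myh1 differs at 12 of 243 bases (95.1% identity) and shares the last 57 bases before the splice donor with Myh4, with 7 of the differences among the first 40 bases. Myh3 differs at 24 bases (90.1%), of which 13 lie among the first 40, and shares the last 9 bases before the donor. The longest identical run was 59 bases with Myh1 and 68 with Myh3. Of 34 inner coding exons of equal length, 7 were more identical between Myh4 and Myh1 than this exon, and 3 of 34 between Myh4 and Myh3. Coding exon 3 (157 nt) is shown likewise for Myh4 (chr11:67241394-67241550), Myh1 (chr11:67202433-67202589) and Myh2 (chr11:67174943-67175099).
Myh4: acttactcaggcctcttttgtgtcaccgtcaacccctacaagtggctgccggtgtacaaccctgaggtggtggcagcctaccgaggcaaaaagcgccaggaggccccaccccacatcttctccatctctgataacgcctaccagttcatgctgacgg
Myh1: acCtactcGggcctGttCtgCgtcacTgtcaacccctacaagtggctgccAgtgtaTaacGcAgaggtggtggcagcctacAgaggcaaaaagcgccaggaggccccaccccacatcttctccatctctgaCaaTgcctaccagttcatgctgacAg
Myh2: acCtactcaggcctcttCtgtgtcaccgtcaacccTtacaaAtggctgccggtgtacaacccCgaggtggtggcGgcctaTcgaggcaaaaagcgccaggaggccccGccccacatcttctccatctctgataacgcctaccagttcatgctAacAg
It differs at 14 bases in Myh1 (91.1% identity) and at 10 in Myh2 (93.6%), and each copy shares only the last 1 base before the donor with Myh4. More identical to Myh4 than this exon were 13 of 34 exons of Myh1 and 10 of 35 of Myh2, so coding exon 3 did not stand out in identity. The chain of 36 exons that starts in the Myh2 copy and continues in Myh4 had 5 and 12 reads. Whether these chains are molecules or reads placed on a similar copy was not tested.

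The developmental and ancient members had few reads. Myh3, the embryonic gene, had 0 reads in replicate 1 and 14 in replicate 2 (9.98 CPM, exact Poisson interval 5.46 to 16.7, above the 2.14 CPM that a count of 0 allows). This level was 3.68-fold above the floor of 3 counts in replicate 1, and the lower 95% counting limit of the ratio was 2.62. Of these 14 reads, 13 were the annotated 41-exon transcript, so the gene was covered from end to end. Myh8, the perinatal gene, had 0 and 1 read, and its level was below the limit that 0 counts allow in both libraries. Myh7b had 1 and 11 reads, each of its 11 reads in replicate 2 falling on a different model, a ratio of CPM of 8.68 whose counting interval ran from 1.26 to 374. Of the other markers of developing fibres, Myog had 18 and 29 reads, Myod1 24 and 26, and Chrng, the fetal acetylcholine receptor subunit, 0 in both.

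Myh7 and Myh7b each hold a microRNA in an intron, and the related sequences are shown with the seed (bases 2 to 8) in capitals (RefSeq, GRCm38.p6).
mmu-miR-208b-3p: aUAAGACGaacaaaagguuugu
mmu-miR-499-5p: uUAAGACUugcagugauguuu
The hairpin Mir208b lies at chr14:54975700-54975776 in intron 31 of the longest Myh7 chain, and Mir499 at chr2:155622880-155622958 in intron 19 of the longest Myh7b chain. Their seeds share 6 of 7 bases. No read of either host gene had an exon over its hairpin, and these libraries do not measure mature microRNAs, so only the level of the hosts is known: 503 and 2839 CPM for Myh7 against 0.903 and 7.84 CPM for Myh7b.

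Few reads, at all but a single locus, came from the opposite strand at these loci. Myhas, the antisense RNA between Myh1 and Myh4, had 40 and 38 reads in models that overlap Myh1, with a 2-exon model at chr11:67224196-67237281 as its most-read form (18 and 20 reads). Unannotated antisense models over Myh4 numbered 4 with 24 reads in replicate 1 and 2 with 64 reads in replicate 2, all of a single exon, in contrast to 16494 and 25951 reads of Myh4 itself. The Myh7 antisense RNA Mhrt had 1 read in each library. The exception was Trpc4ap, which faces Myh7b tail to tail and had 346 and 503 reads in models that overlap it.

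Other muscle genes were taken from lists by known function. Slow-fibre genes followed the direction of Myh7: each of the 12 had a higher CPM in replicate 2, 10 by more than 2-fold, with a median log2 ratio of 1.26. Over all 4295 genes, 61.0% were higher in replicate 2, 3.86% by more than 2-fold, and the median was 0.11. They included Tnnt1 (664 and 2418 reads), the slow troponin C gene Tnnc1 (463 and 1442) and Atp2a2 (312 and 1192). The CPM of all 12 fast-fibre genes was lower there, with a median of -0.52 and none past 2-fold, where 39.0% of all genes were lower and 0.536% by more than 2-fold. Among them were Mylpf, the fast regulatory light chain (15125 and 12074 reads), and Actn3, the Z-disc alpha-actinin of fast fibres (13798 and 11963). CPM are shares of annotated-gene reads. Spike-ins made up 4.20% of all reads in replicate 1 and 2.11% in replicate 2, and levels scaled to them were not compared. By CPM, Myh4 had the opposite sign to the 12 fast-fibre genes, with a log2 ratio of 0.31, or 0.21 after rescaling by size factors. Of the Myh4 reads, 565 in replicate 1 and 3630 in replicate 2 belonged to the 3-exon 3′ chain. Genes of 5 to 7 kb had a median of 0.26. The parts of that chain and of transcript length in this difference were not tested.

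Proteins that fold myosin and factors that act on heavy chain genes held few members past 2-fold, as did all genes (3.86% higher and 0.536% lower). By any amount, 61.0% of all 4295 genes were higher in replicate 2. Of 9 measured chaperone and turnover genes, 1 was higher in replicate 2 and none passed 2-fold (median -0.22), with 408 and 443 reads for the myosin chaperone Unc45b and 328 and 323 for the methyltransferase Smyd1. Of 13 regulators with at least 50 reads, 6 were higher in replicate 2 (median -0.04), and Vgll2, a cofactor of TEAD factors, was over 2-fold higher in replicate 2 (147 and 420 reads). The fast-fibre factor Tbx15 had 252 and 379 reads, the MADS-box factor Mef2c 149 and 211, and the fast-muscle long noncoding RNA 2310065F04Rik 176 and 155. Of 7 measured thick filament genes, 4 were higher in replicate 2 (median 0.18), and Mybpc1, the slow myosin-binding protein C, was over 2-fold higher (731 and 1948 reads), while the fast form Mybpc2 had 7223 and 7135 reads. Of 7 measured genes of myosin light chains and their kinases, 2 were higher in replicate 2 (median -0.41), the slow light chain genes Myl2 (120 and 309 reads) and Myl3 (349 and 861). The light chain kinase gene Mylk2 was over 2-fold lower (179 and 108 reads). Of other heavy chain genes, only the non-muscle Myh14 passed 50 summed reads (44 and 93). Myh15 and the extraocular gene Myh13 had 0 reads in both libraries.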

How the data were processed

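The authors deposited, for each of 2 long-read libraries, whole-number read counts per transcript model with its exon number and length, and a GTF of model exons. Per the file headers and deposited notes these are TALON models on mm10 with GENCODE M21; of the aligner and filters, the sources used here say nothing. Counts were summed per gene, spike-ins left out, and divided by annotated-gene reads (CPM). Start exons were assigned by the donor of a model's first junction. Log2 ratios used a prior count of 0.5, and a gene was called past 2-fold with at least 50 summed reads. Intervals (95%, exact Poisson or Wilson) cover counting error only. With 1 group of 2 libraries no test was made.

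All members were named, with their leading models, up to 6 genes per list by summed reads and the 3 nearest genes by ratio; slow, fast and marker genes were named beyond this. Members and lists were chosen with earlier results of these data known. Alternatives were library scaling, models counted, depth, prior, count minimum, 5′ window and reference chain, and each replicate left out. The ratio step was tested on simulated data. Python 3.11.15, pandas 2.3.3, scipy 1.17.1 and edgeR 4.0.16 (TMM factors only) were used.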

Additional observations from a re-analysis of the deposited data

How the results depend on the processing

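Of 96 alternative values for 29 results that used both libraries, 71 stayed within the replicate spread or counting interval, 25 moved and 0 reversed. A further 48 were values of 1 library, which with 2 libraries lie within 1 SD of the mean by construction and say nothing about stability. For CPM the rule was loose, because the SD between the libraries was wide. Annotated transcripts alone took Myh2 from 939 to 433 CPM and Myh1 from 2530 to 1738 CPM, and both counted as unmoved. The 5′ windows of 20 and 200 nt left every share unchanged. The count of 3 members past 2-fold was the same under every alternative run, but these could hardly change it. Minima of 20 and 100 summed reads kept the same members. Rescaling shifted log2 ratios by only -0.10 and -0.09, where the lowest of the 3 was 1.63. With annotated transcripts only, mean CPM of Myh4 was 2922, mean family shares were 50.4% (Myh4), 25.9% (Myh1), 6.30% (Myh2) and 17.3% (Myh7), and log2 ratios were 0.77 (Myh4), 1.85 (Myh2) and 2.73 (Myh7). Size factors gave log2 ratios of 0.21 (Myh4) and 1.525 (Myh1), and TMM 0.23 and 1.54; they shifted all ratios by -0.10 and -0.09. Mean shares of reads reaching the 5′ end moved with its definition. The most-read annotated reference gave 65.8% (Myh1), 34.8% (Myh2) and 78.0% (Myh7). Of the definitions chosen after seeing the data, the first junction of the longest chain gave 33.1% (Myh4), 65.6% (Myh1), 34.0% (Myh2) and 77.9% (Myh7), and the start codon exon 77.5% (Myh1), 51.9% (Myh2) and 80.0% (Myh7). With models of at least 2 reads only, unannotated splice sites held 0.660% of Myh1, 0.335% of Myh2 and 0.716% of Myh7 reads. The causes were not tested. No paired analysis was possible because there is 1 group. Depth limits Myh3, Myh7b and Myh8, with at most 14 reads in a library.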
